A study of Mus musculus with 12 samples.

Results

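Primed epiblast markers were followed on 12 microarrays from mouse embryonic stem cells (mESCs). The names Fgf5, Otx2, Pou3f1, Zic2, Sox3, Oct6, Foxd3 and Cldn6 were taken as given, and since Oct6 is an older name of Pou3f1, the 8 names stand for 7 genes. Each of the 7 genes had 1 probe set, so 7 of the 41345 probe sets on the array were examined, and all 7 had a mean above that of the median probe set. The cells were of the male line E14.wt, of 129P2/OlaHsd background, and every group had received a lentiviral short hairpin RNA (shRNA) vector with a puromycin resistance gene. Experiment A held 3 arrays of cells with the shRNA against Msl1 (shMsl1_A) and 3 arrays of cells with a non-target shRNA (shcontrol_A), and experiment B held 3 arrays of cells with the shRNA against Nsl1 (shNsl1_B) and 3 of its own non-target controls (shcontrol_B). Msl1 and Nsl1 are subunits around which a pair of complexes with the histone acetyltransferase Mof assemble, MSL and NSL, and the mouse gene for Nsl1 is Kansl1. A single shRNA clone was used for each gene. The cells had grown with serum and leukemia inhibiting factor on feeder cells and then, for a passage, without them. The values are log2 signals, so that a difference of 1 is a doubling, and values of different genes cannot be set against each other. The number of arrays limits the precision of every value.

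Mouse pluripotency is commonly described as a passage from a naive state, that of the preimplantation epiblast and of mESCs, through a formative state to a primed state, that of the epiblast after implantation and of epiblast stem cells. On the way, naive transcription factors such as Klf2, Klf4 and Esrrb are turned down, FGF and ERK signalling takes hold, and genes such as Fgf5, Otx2 and Pou3f1 are turned on, while the core factors Pou5f1 and Sox2 stay on. Cells kept in serum hold a mixture of these states. The question put to the arrays was whether lower naive genes went with higher formative or primed genes.

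Of the members, Fgf5 encodes a secreted fibroblast growth factor, Otx2 a homeodomain protein, Pou3f1 a POU domain protein, Zic2 a zinc finger protein, Sox3 a protein of the SOXB1 group, Foxd3 a forkhead protein and Cldn6 a claudin of epithelial tight junctions. The genes lie on different chromosomes in the RefSeq annotation of the mouse assembly GRCm38.p6, with Foxd3 and Pou3f1 on chromosome 4, Fgf5 on chromosome 5, Otx2 and Zic2 on chromosome 14, Cldn6 on chromosome 17 and Sox3 on chromosome X. The RefSeq promoter table held windows for 4 of the 7 genes, namely Foxd3, Fgf5, Cldn6 and Otx2. The 250 bases before the start site are shown for the gene that stood apart after Nsl1 knockdown (Fgf5), for the gene that went against the others (Cldn6), and for Foxd3 and Otx2, which moved together across the arrays. They are given 5′ to 3′ on the strand of the gene, with capitals for any match to the motifs searched.
Fgf5 promoter, chr5:98253934-98254183, plus strand: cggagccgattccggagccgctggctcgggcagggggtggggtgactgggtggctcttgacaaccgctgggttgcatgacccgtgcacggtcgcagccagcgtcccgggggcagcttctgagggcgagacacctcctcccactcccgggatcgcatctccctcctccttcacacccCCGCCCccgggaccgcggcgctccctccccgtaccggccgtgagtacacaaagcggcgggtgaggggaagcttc
Cldn6 promoter, chr17:23679115-23679364, plus strand: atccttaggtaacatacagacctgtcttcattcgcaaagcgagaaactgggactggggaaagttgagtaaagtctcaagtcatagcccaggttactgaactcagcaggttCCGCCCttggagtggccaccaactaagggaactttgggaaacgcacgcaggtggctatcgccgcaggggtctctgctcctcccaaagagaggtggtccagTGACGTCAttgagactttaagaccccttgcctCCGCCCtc
Foxd3 promoter, chr4:99656049-99656298, plus strand: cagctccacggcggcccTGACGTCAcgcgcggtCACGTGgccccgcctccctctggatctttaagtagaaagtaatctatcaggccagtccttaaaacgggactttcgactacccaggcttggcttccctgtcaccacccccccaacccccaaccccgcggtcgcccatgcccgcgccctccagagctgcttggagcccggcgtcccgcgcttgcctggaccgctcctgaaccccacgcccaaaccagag
Otx2 promoter, the first of 4 starts, chr14:48667645-48667894, minus strand: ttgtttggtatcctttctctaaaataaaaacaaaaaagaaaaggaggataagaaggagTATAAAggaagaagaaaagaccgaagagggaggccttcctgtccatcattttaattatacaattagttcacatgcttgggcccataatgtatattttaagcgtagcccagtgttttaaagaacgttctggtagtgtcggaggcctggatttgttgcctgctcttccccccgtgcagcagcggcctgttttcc
The motifs were searched on both strands in these windows and in the same 250 bases of all 32851 windows of the table, and no match in the members overlapped another. The cyclic AMP response element TGACGTCA, held by 1.55% of all windows, was found in Foxd3 and in Cldn6. The E-box CACGTG (6.02% of all windows) was found in Foxd3, the GC box GGGCGG (32.7%) in Fgf5 and at 2 places in Cldn6, and TATAAA (12.4%) in the Otx2 window shown. The OTX motif TAATCC (6.25%) was found in the window of another Otx2 start, and the octamer ATGCAAAT (1.6%) in none of the 7 windows of the 4 genes. Such matches describe the letters and not a bound site, and the array data do not bear on them. The last bases of the Cldn6 window lie within the gene as RefSeq bounds it, from another start.

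Before the members, the targeted genes were read on each array. Msl1 signals were 6.77, 9.18 and 7.64 on arrays 1, 2 and 3 labelled shMsl1_A, against 8.56, 6.90 and 8.62 on those labelled shcontrol_A. The array labelled shMsl1_A 2 thus had more Msl1 signal than every array labelled shcontrol_A, and the array labelled shcontrol_A 2 had less than the array labelled shMsl1_A 3, so that both went against their labels. The labels do not settle whether these arrays were exchanged, and groups were kept as labelled. As labelled, the mean Msl1 signal differed by -0.16 ± 0.74 (SE) between shMsl1_A and shcontrol_A, so these groups show no clear knockdown of Msl1. For experiment A, knockdown below refers to the label alone. Every Msl1 difference given here holds for the arrays as labelled, and what an exchange would do to it was not tested. The Kansl1 probe set that answered more clearly had 6.45, 6.56 and 6.71 in shNsl1_B, against 7.33, 7.30 and 7.36 in shcontrol_B, so all 3 knockdown arrays were below all controls. The other Kansl1 probe set had 8.47, 8.92 and 9.30 in shNsl1_B, against 9.14, 9.36 and 9.52 in shcontrol_B, with overlap. The correlation of 2 arrays of a group over all probe sets lay between 0.965 and 0.995. The core factors of pluripotency were present on every array, with Pou5f1 between 8.73 and 9.42, and Sox2, a SOXB1 factor of all pluripotent cells, between 10.86 and 11.68.

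**Figure D1:**
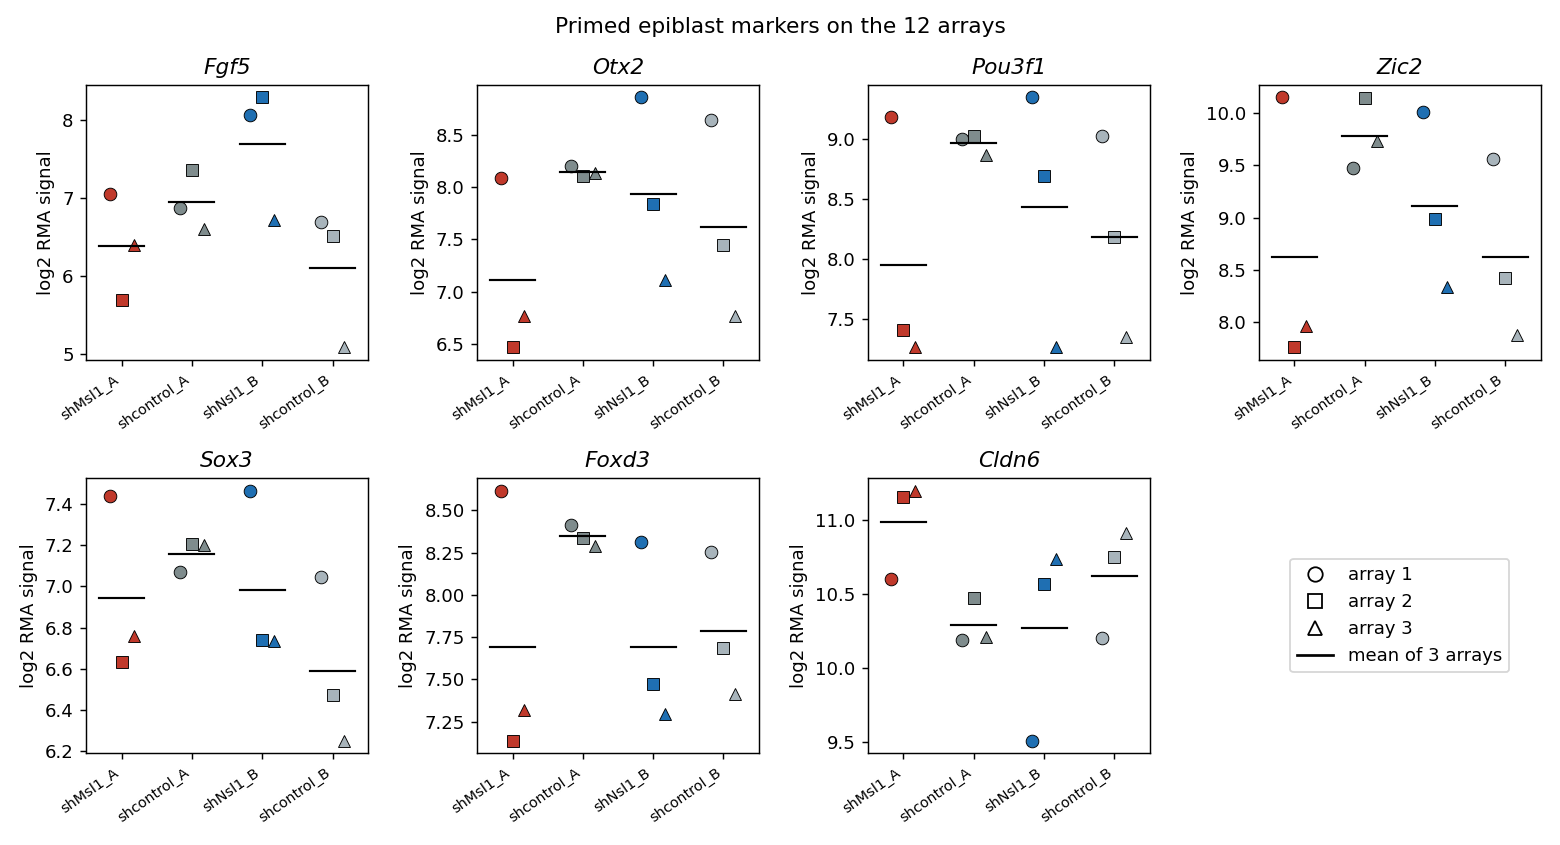
Log2 RMA signal (vertical axis) of each of the 7 primed epiblast markers on the 12 arrays, by group (horizontal axis), with a symbol for each array number and a bar for the mean of 3 arrays. Fgf5 is higher on every shNsl1_B array than on every shcontrol_B array, and 6 genes are lower, and Cldn6 higher, on the arrays labelled shMsl1_A 2 and 3 than on the array labelled shMsl1_A 1.

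Fgf5, the marker most often used for the step out of the naive state, was the member that stood out after Nsl1 knockdown. Its signals were 8.07, 8.29 and 6.72 in shNsl1_B, against 6.70, 6.52 and 5.09 in shcontrol_B. All 3 knockdown arrays lay above all 3 control arrays, by a narrow margin for array 3, and in both groups array 3 was the lowest. The mean was 7.69 ± 0.85 in shNsl1_B and 6.10 ± 0.88 in shcontrol_B (SD, n = 3 each), a difference of 1.59 ± 0.58 on the log2 scale (SE), or 3.01-fold. It did not pass limma over all probe sets (adjusted p = 0.885), and an exact two-sided permutation test gave p = 0.1, the smallest that 3 arrays against 3 allow. Of all probe sets, 4.66% likewise had all knockdown arrays above all control arrays. Between arrays of the same number the difference was 1.37, 1.77 and 1.63, with an SD of 0.203, smaller than the SD within either group. Without single arrays the group difference ranged from 1.085 (without shcontrol_B 3) to 2.08 (without shNsl1_B 3). The value of 5.09 on shcontrol_B 3 lay below the mean of the median probe set (5.65). By fold change rank ordering statistics (FCROS), the method of the study, which ranks fold changes without adjusting for multiple tests, Fgf5 was called higher.

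The transcription factor genes gave smaller differences after Nsl1 knockdown, and their groups overlapped. Otx2 had 8.85, 7.84 and 7.11 in shNsl1_B, against 8.64, 7.44 and 6.76 in shcontrol_B. Zic2 had 10.01, 8.99 and 8.34 in shNsl1_B, against 9.55, 8.43 and 7.88 in shcontrol_B. Sox3 had 7.46, 6.74 and 6.74 in shNsl1_B, against 7.05, 6.47 and 6.25 in shcontrol_B. In all 3 genes every knockdown array exceeded the control array of its own number, Otx2 by 0.21 to 0.40, Zic2 by 0.45 to 0.56 and Sox3 by 0.27 to 0.48, while the values within a group spread far more widely. Such a difference in the same direction in all 3 pairs was seen upwards in 18.6% of all probe sets. FCROS called Sox3 higher and called neither Otx2 nor Zic2.

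Pou3f1 and Foxd3 showed no common direction in experiment B. Pou3f1 had 9.35, 8.70 and 7.27 in shNsl1_B, against 9.02, 8.19 and 7.35 in shcontrol_B, a difference of 0.25 ± 0.64 (SE). Foxd3 had 8.31, 7.47 and 7.30 in shNsl1_B, against 8.25, 7.69 and 7.41 in shcontrol_B, a difference of -0.09 ± 0.33. In both genes 1 of the 3 same-numbered differences ran against the other 2.

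Cldn6 was the member that lay lower in shNsl1_B in each pair. It had 9.51, 10.57 and 10.74 in shNsl1_B, against 10.20, 10.75 and 10.92 in shcontrol_B. The groups overlapped, and the same-numbered differences were -0.69, -0.19 and -0.18, a direction shared by 17.8% of all probe sets in all 3 pairs. The group difference was -0.35 ± 0.37 (SE, adjusted p = 0.9999 by limma).

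Over the 7 members, 5 had a higher and 2 a lower mean in shNsl1_B than in shcontrol_B, and the median difference was 0.32, beside -0.00043 over all probe sets with 1 gene symbol. None was called by limma, in a comparison in which 0 of the 41345 probe sets (0%) passed and 2175 (5.26%) had an unadjusted p under 0.05, 1 member among them. With same-numbered arrays as pairs 0 passed again and 6146 (14.9%) had an unadjusted p under 0.05, 5 members among them, Fgf5, Otx2, Zic2, Sox3 and Cldn6. The median of the members was -0.091 against all 6 control arrays and -0.11 without shcontrol_B 3. FCROS called 766 probe sets higher (1.85%) and 1389 lower (3.36%), and of the members Fgf5 and Sox3 higher and none lower.

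In shMsl1_A 6 of the 7 members had a lower mean than in shcontrol_A and Cldn6 a higher one, but the difference lay mainly on 2 of the 3 arrays. Zic2 had 10.15, 7.76 and 7.97 on the arrays labelled shMsl1_A, against 9.47, 10.14 and 9.73 on those labelled shcontrol_A. Pou3f1 had 9.18, 7.41 and 7.27 in shMsl1_A, against 8.999, 9.026 and 8.864 in shcontrol_A. In both genes arrays 2 and 3 of shMsl1_A lay below all controls, whereas array 1, the array with the lowest Msl1 signal, lay above all of them. The differences of the means were -1.16 ± 0.64 for Zic2 and -1.01 ± 0.50 for Pou3f1 (SE).

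Otx2 was the only member that was lower on every shMsl1_A array than on every shcontrol_A array. Its signals were 8.08, 6.47 and 6.77 in shMsl1_A, against 8.20, 8.11 and 8.13 in shcontrol_A, so array 1 fell short of the lowest control by little. The difference was -1.04 ± 0.41 (SE, adjusted p = 0.622 by limma), with p = 0.1 by the exact two-sided permutation test. Of all probe sets, 5.78% had all shMsl1_A arrays below all shcontrol_A arrays. FCROS called Otx2 lower.

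Foxd3 and Sox3 followed the same arrays. Foxd3 had 8.62, 7.14 and 7.32 in shMsl1_A, against 8.41, 8.33 and 8.29 in shcontrol_A, and differed by -0.65 ± 0.38 (SE). Sox3 had 7.44, 6.64 and 6.76 in shMsl1_A, against 7.07, 7.20 and 7.20 in shcontrol_A, and differed by -0.21 ± 0.22. Both were highest of the experiment on array 1 of shMsl1_A and lowest on arrays 2 and 3.

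Fgf5 followed this pattern less closely. It had 7.061, 5.702 and 6.402 in shMsl1_A, against 6.88, 7.36 and 6.61 in shcontrol_A. Arrays 2 and 3 lay below all controls, array 3 by little, and the highest value was that of the array labelled shcontrol_A 2, whose Msl1 signal went against its label. The difference was -0.56 ± 0.37 (SE), and -0.01 when both arrays that went against their labels were left out.

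Cldn6 moved the other way in experiment A. Its signals were 10.60, 11.16 and 11.20 in shMsl1_A, against 10.19, 10.47 and 10.21 in shcontrol_A, and all 3 shMsl1_A arrays lay above all controls. The difference was 0.69 ± 0.19 (SE, adjusted p = 0.622 by limma), with p = 0.1 by the exact two-sided permutation test. Of all probe sets, 6.38% had all shMsl1_A arrays above all shcontrol_A arrays. Without both arrays that went against their labels the difference was 0.70, and FCROS called Cldn6 higher.

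None of the 7 members was called by limma in shMsl1_A against shcontrol_A, in a fit that called 0 of the 41345 probe sets (0%) and gave 3163 (7.65%) an unadjusted p under 0.05, 2 members among them. FCROS called 688 probe sets higher (1.66%) and 559 lower (1.35%), and of the members Cldn6 higher and Otx2 lower. Without the array labelled shMsl1_A 1 limma called 6771 of the 41345 probe sets, and 6 members passed. The differences were -1.92 for Zic2 (adjusted p = 0.00464 by limma), -1.62 for Pou3f1 (0.00204), -1.53 for Otx2 (0.00263) and -1.12 for Foxd3 (0.00329). Sox3 was at -0.46 (0.0267) and Cldn6 at 0.89 (0.00769), while Fgf5 did not pass (-0.90, 0.0911). The array left out had the lowest Msl1 signal of its group. What remains is an array with more Msl1 signal than all its controls and 1 with less than 2 of its 3 controls. Without the arrays labelled shcontrol_A 2 and shMsl1_A 2, limma called 0, and the differences were -0.74 for Otx2, -0.70 for Pou3f1, -0.54 for Zic2, -0.38 for Foxd3 and -0.04 for Sox3.

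**Figure D2:**
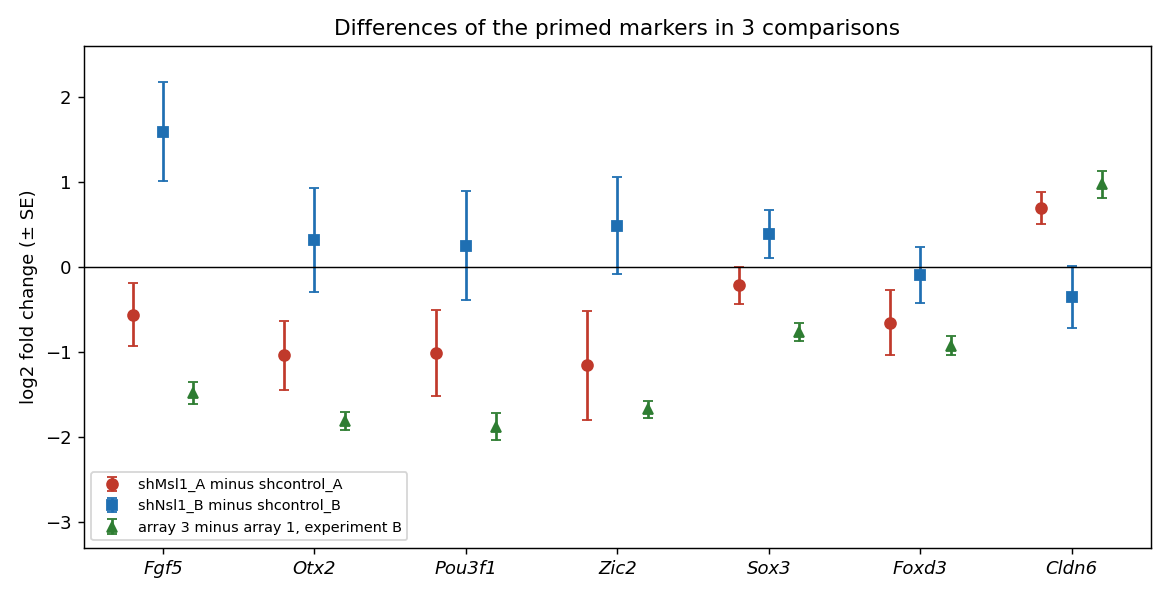
Log2 fold change with SE (vertical axis) of the 7 markers in shMsl1_A against shcontrol_A, in shNsl1_B against shcontrol_B, and of array 3 against array 1 in experiment B. Fgf5 stands at 1.59 after Nsl1 knockdown, and the differences between array numbers have the smallest errors, with 6 genes below 0 and Cldn6 at 0.97. The errors of the array numbers measure scatter within same-numbered pairs and not between separate cultures.

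Apart from Fgf5, the members differed more between array numbers in experiment B than between its groups. In the labels the numbers are names of replicates and have no order, but in experiment B arrays of the same number deviated together from their group means. With the group as a covariate, array 3 was compared with array 1 over both groups. Pou3f1 averaged 7.31 on the arrays numbered 3 and 9.19 on those numbered 1, a difference of -1.88 ± 0.16 (SE). Otx2 averaged 6.94 on the arrays numbered 3 and 8.75 on those numbered 1, a difference of -1.81 ± 0.10. Zic2 averaged 8.11 on the arrays numbered 3 and 9.78 on those numbered 1, a difference of -1.67 ± 0.10. In each of these genes both arrays numbered 3 lay below all other arrays of the experiment, and both arrays numbered 1 above. The share of all probe sets with such an order was not counted.

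Fgf5 differed by -1.48 ± 0.13 between arrays 3 and 1, close to the size of its difference between knockdown and control. Foxd3 differed by -0.93 ± 0.11 and Sox3 by -0.76 ± 0.11. Cldn6 averaged 10.83 on the arrays numbered 3 and 9.86 on those numbered 1, a difference of 0.97 ± 0.16. All 7 members were called by limma (adjusted p = 0.00277 to 0.0152), 6 lower and 1 higher. Each number held a knockdown and a control array that deviated together from their group means. The SE and p-values here thus measure scatter within such pairs, and not the spread between separate cultures. In this comparison 9058 of the 41345 probe sets (21.9%) were called, 5779 higher (14%) and 3279 lower (7.93%). The split depended on the scaling, since with each array centred on its median 12168 probe sets were called, of which 35.8% were higher, against 63.8% as deposited, and the median of all probe sets moved to -0.19, while all 7 members kept their direction and their call. Leaving out shNsl1_B 3 gave 2562 calls, and Sox3 (adjusted p = 0.0519), Foxd3 (0.055) and Cldn6 (0.0973) no longer passed. Sox3 also missed the threshold without shNsl1_B 1 (0.0518) and without shcontrol_B 3 (0.0537).

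In experiment A the same comparison called no probe set (0%), with 1967 (4.76%) at an unadjusted p under 0.05 by limma and no member among them. There 6 members again had the lower and Cldn6 the higher mean on the arrays numbered 3, from -1.02 ± 0.51 for Pou3f1 to 0.31 ± 0.18 for Cldn6. The controls of both experiments differed in spread, since the SD of Otx2, Pou3f1, Sox3 and Foxd3 lay between 0.41 and 0.95 in shcontrol_B, against 0.047 to 0.087 in shcontrol_A. The gap was narrower for Fgf5 (0.88 in shcontrol_B and 0.38 in shcontrol_A), Zic2 (0.85 and 0.34 in the same groups) and Cldn6 (0.37 and 0.16).

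The control groups also differed, and no member was called between them. Experiment and group cannot be told apart here. The means of 6 members were lower in shcontrol_B than in shcontrol_A, from -1.16 ± 0.42 for Zic2 (adjusted p = 0.135) to -0.53 ± 0.44 for Otx2, and Cldn6 was higher by 0.33 ± 0.20. All shcontrol_B arrays lay below all shcontrol_A arrays in Sox3 and Foxd3, but how many of all probe sets did so was not counted. Limma gave 12100 of the 41345 probe sets an unadjusted p under 0.05, 3 members among them. Limma called 2238 probe sets (5.41%) in this comparison, but 0 without shcontrol_B 2 or 3, without any 1 of the shcontrol_A arrays, or without dim probe sets, where 5385 to 9342 had an unadjusted p under 0.05. Without shcontrol_B 1, the control array of experiment B with the highest levels of the 6 genes, limma called 8382 of the 41345 probe sets. Among them were 6 of the members, with adjusted p by limma from 0.0145 for Sox3 to 0.0373 for Cldn6, and Fgf5 missed the threshold.

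Ordered by group mean, Fgf5 was highest in shNsl1_B (7.69), followed by shcontrol_A (6.95), shMsl1_A (6.39) and shcontrol_B (6.10). Otx2, Pou3f1, Zic2, Sox3 and Foxd3 were all highest in shcontrol_A, and Cldn6 was highest in shMsl1_A (10.99) and lowest in shNsl1_B (10.27). For every member, the ranges of groups next to each other in this order overlapped, save Foxd3, whose values in shcontrol_B, next below shcontrol_A, did not reach those of shcontrol_A. A fit over all 12 arrays set the knockdown effects against each other, and it called 4 probe sets (0.00967%) and no member, or 0 probe sets with same-numbered arrays as pairs. For Fgf5 the effect of the Msl1 shRNA, as labelled, minus that of the Nsl1 shRNA was -2.15 ± 0.75 (SE, adjusted p = 0.649 by limma).

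The members varied together across the 12 arrays, which share groups and array numbers, so that the correlations only describe them. Among Otx2, Pou3f1, Zic2, Sox3 and Foxd3 Pearson's r lay between 0.796 and 0.947 for the 10 pairs. Fgf5 followed these 5 genes less closely, with r between 0.430 and 0.700, and Cldn6 ran against the other 6, with r between -0.920 and -0.625. After the group means were removed the ranges were 0.881 to 0.965, 0.656 to 0.845 and -0.908 to -0.538. Within groups the members varied more than most genes, since their pooled SD lay between 0.366 for Sox3 and 0.908 for Zic2, beside a median of 0.160 over the named probe sets. Of the named probe sets 99.7% had a smaller SD than Zic2, and 91.2% a smaller one than Sox3.

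The genes whose signals were most like those of a member over the 12 arrays differed from member to member. Those closest to Fgf5 were Sctr, Syt13 and Adgrl3 (r = 0.919, 0.911 and 0.902). For Otx2 they were Pdzd4, Aff3 and Xpot, for Pou3f1 Socs2, Rragb and Ubr7, and for Zic2 Rfx4, Spon1 and Ppp1r1a. For Sox3 they were Scrn1, Fuom and Shisa2, for Foxd3 Hsf2bp, Ramp3 and Gtpbp1 with r of up to 0.992, and for Cldn6 Tmem144, Suox and Tcirg1. The r was the highest of 18555 probe sets compared, so its size is in part that of a maximum.

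Other genes of the formative and primed states were read beside the members. Of 14 such genes, 10 were lower and 4 higher in shMsl1_A than in shcontrol_A, with a median of -0.36 and no call. Tcf15, a transcription factor linked to the exit from naive pluripotency, differed by -1.33 ± 0.56, and the DNA methyltransferases Dnmt3b and Dnmt3a by -0.92 ± 0.43 and -0.76 ± 0.30. Cdh2, which encodes N-cadherin (1.19 ± 0.65), and the signalling ligands Fgf8 (0.54 ± 0.27) and Nodal (0.28 ± 0.15) lay on the other side. In shNsl1_B 9 of the 14 were higher, with a median of 0.23 and no call, led by the Wnt ligand Wnt8a (0.75 ± 0.21, adjusted p = 0.718) and the RNA-binding protein Lin28b (0.39 ± 0.12). The 5 lower ones included Tcf15 (-0.11 ± 0.57), Dnmt3a (-0.066 ± 0.404) and Dnmt3b (-0.056 ± 0.526). Between arrays 3 and 1 of experiment B 7 were called lower and 1 higher, among them Pim2 (-1.73 ± 0.12), Tcf15 (-1.67 ± 0.14), Dnmt3b (-1.56 ± 0.10) and Dnmt3a (-1.15 ± 0.11). The gene called higher was Cdh2 (1.28 ± 0.14, and 0.45 by its dimmer probe set). In that comparison 7.93% of all probe sets were called lower and 14% higher.

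In shMsl1_A the naive genes lay lower together with the primed markers. Of 16 naive genes, 14 were lower in shMsl1_A than in shcontrol_A, with a median of -0.30 and no call. Gbx2, a homeobox gene of the naive network, was at -1.18 ± 0.43, and at -0.52 by its dimmer probe set. Klf4, a Krüppel-like factor, was at -0.37 ± 0.14 and Zfp42 (Rex1) at -0.29 ± 0.10. In shNsl1_B 7 were higher and 9 lower, with a median of -0.04 and no call, and Nanog differed by -0.10 ± 0.09. Between arrays 3 and 1 of experiment B 4 naive genes were called lower, among them Gbx2 (-1.28 ± 0.14), Nr0b1 (-0.86 ± 0.11) and Klf2 (-0.69 ± 0.14), and Tbx3 was called higher (0.62 ± 0.11). Nanog itself differed by -0.05 ± 0.10 there. That comparison called 7.93% of all probe sets lower and 14% higher.

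Array by array, the mean of the 16 naive genes was set beside that of the members, each as a difference from the mean of the controls of its experiment. Cldn6 was left out of the member mean after its values were seen. The deviations of the control arrays sum to 0 within an experiment, and those of the naive mean on shcontrol_A were at most 0.013, so sides were counted on the knockdown arrays alone. Both means lay on the same side of their control mean on 5 of the 6 knockdown arrays. On arrays 1, 2 and 3 of shMsl1_A the naive mean stood at 0.07, -0.61 and -0.46, and the mean of the 6 members at 0.20, -1.37 and -1.14. On those of shNsl1_B the naive mean stood at 0.22, -0.16 and -0.08, and the mean of the members at 1.19, 0.52 and -0.24. The knockdown array with opposite sides was shNsl1_B 2, with lower naive and higher primed genes. This count left out the pairing taken for experiment B. On arrays 1, 2 and 3 of shcontrol_B the naive mean stood at 0.18, -0.21 and 0.03, and that of the members at 0.72, -0.03 and -0.69. Beside the control of its own number, every shNsl1_B array had the higher mean of the members. The naive mean was then higher on shNsl1_B 1 and 2 and lower on shNsl1_B 3, so the opposite sides fell on shNsl1_B 3. Of the 6 knockdown arrays, the 2 with the lowest naive mean, shMsl1_A 2 and 3, also had the lowest mean of the members.

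**Figure D3:**
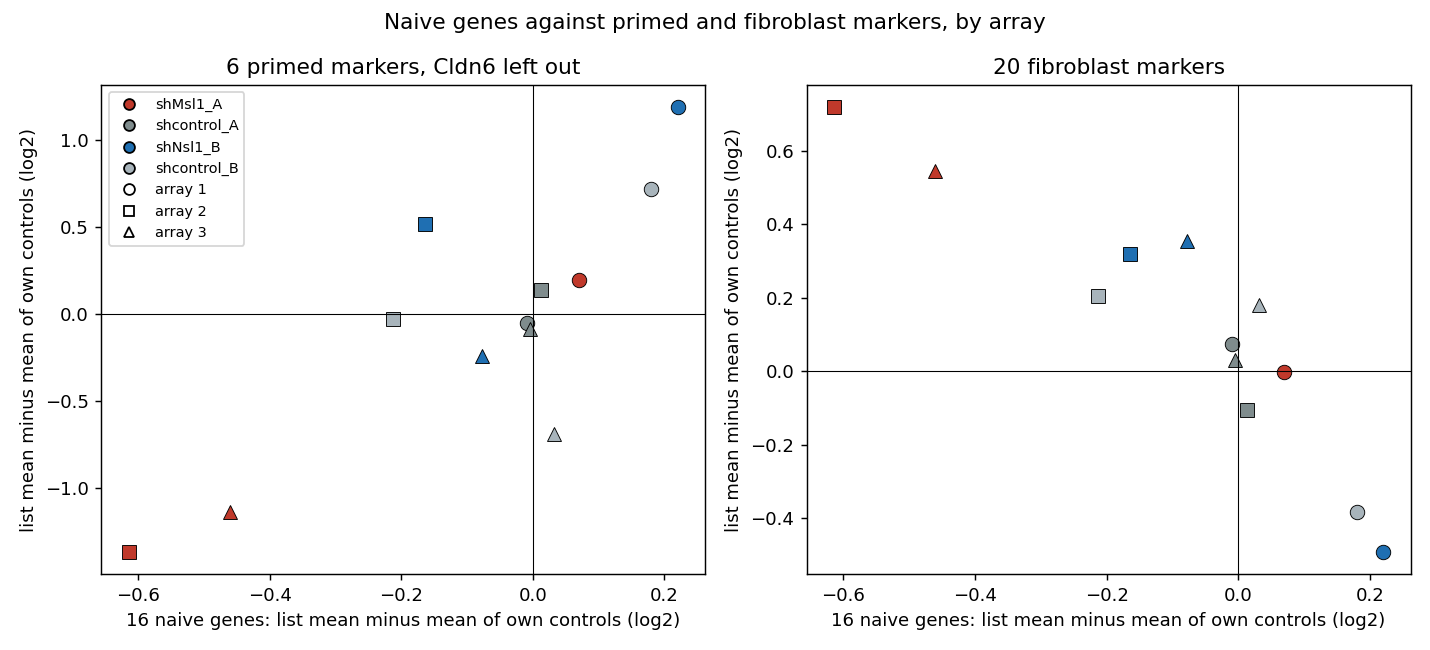
Mean of 16 naive genes (horizontal axis) against the mean of 6 primed markers (left) and of 20 fibroblast markers (right), each on the log2 scale as a difference from the mean of the controls of its experiment, with a point for each of the 12 arrays. The arrays labelled shMsl1_A 2 and 3 lie at the low end of the naive and primed means and at the high end of the fibroblast mean, and arrays 1 of experiment B lie at the opposite ends.

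Most markers of fibroblasts, a cell type the feeder layer could have left behind, moved with this pattern. Of 20 markers 18 were higher in shMsl1_A than in shcontrol_A, with a median of 0.32 and no call. Fap (-0.35 ± 0.14) and Lum (-0.08 ± 0.09) were lower there. Between arrays 3 and 1 of experiment B 10 were called higher, beside 14% of all probe sets. They were led by Postn, a matrix protein (2.58 ± 0.31), the receptor Pdgfrb (2.07 ± 0.23) and the collagen Col1a1 (2.03 ± 0.19). In all 17 were higher and 3 lower, Twist1 (-0.29 ± 0.13), Fap (-0.16 ± 0.10) and S100a4 (-0.11 ± 0.10). Thy1 (0.02), Dcn (0.06) and Lum (0.09) differed little. The mean signal of the 20 markers ranged from 6.91 to 7.63 in shMsl1_A, from 6.81 to 6.99 in shcontrol_A, from 6.92 to 7.77 in shNsl1_B and from 7.03 to 7.62 in shcontrol_B. RMA signals have no true 0, so no marker could be read as absent. In RNA from a whole culture, fewer cells of a type and less RNA per cell cannot be told apart, and the part of the fibroblast markers in the result was not tested. Between shNsl1_B and shcontrol_B 9 of the 20 were higher and 11 lower, with a median of -0.01. Fibroblast markers were not alone in rising on shMsl1_A 2 and 3. Beside the mean of the controls, the trophectoderm list stood there at 0.93 and 0.72, and the fibroblast list at 0.72 and 0.54. The primitive streak list stood at 0.36 and 0.47 and the primitive endoderm list at 0.25 and 0.22, while the early neural list stood at -0.30 and -0.33.

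Of 7 genes of general pluripotency all 7 were lower in shMsl1_A than in shcontrol_A, with a median of -0.40 and no call, among them Utf1 (-0.76 ± 0.50). In shNsl1_B 3 were higher and 4 lower, with a median of -0.066 and no call. Pou5f1 differed by -0.10 ± 0.11 in shMsl1_A, by -0.09 ± 0.10 in shNsl1_B and by -0.07 ± 0.12 between arrays 3 and 1 of experiment B. Sox2 was lower on all 3 shMsl1_A arrays, at 11.40, 10.86 and 11.03, against 11.68, 11.49 and 11.58 in shcontrol_A (-0.49 ± 0.15, SE, adjusted p = 0.622 by limma). Between arrays 3 and 1 of experiment B 3 of 7 general genes were called lower, beside 7.93% of all probe sets. They were Utf1 (-1.34 ± 0.09), Lin28a (-0.81 ± 0.11) and Sall4 (-0.73 ± 0.10, and -0.14 by its dimmer probe set).

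Genes of FGF and ERK signalling, which drives the step towards the primed state, included targets and feedback inhibitors. Of 9 genes 8 were lower in shMsl1_A, with a median of -0.43 and no call. Among the 8 were the early response gene Egr1 (-1.003 ± 0.502) and the ETS factor Etv5 (-0.87 ± 0.42, and -0.43 by its dimmer probe set). The receptor Fgfr2, also lower, had the smallest p of the list there (-0.21 ± 0.08). In shNsl1_B 5 were higher and 4 lower, with a median of 0.04 and no call. Between arrays 3 and 1 of experiment B 5 were called lower, beside 7.93% of all probe sets. Among the 5 were Egr1 (-0.83 ± 0.17) and the feedback inhibitor Spry4 (-0.73 ± 0.12). The receptor Fgfr1 was called higher (0.84 ± 0.10), beside 14% of all probe sets.

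Genes of the lineages that follow the primed state were read last. Of 10 early neural genes, 7 were lower in shMsl1_A, with a median of -0.11 and with Sox1 and Pax6 lowest (-0.82 ± 0.28 and -0.81 ± 0.32). In shNsl1_B 8 of the 10 were higher, with a median of 0.13, and no early neural gene was called in either knockdown. Between arrays 3 and 1 of experiment B all 10 were lower, with a median of -0.26. There 4 were called lower, beside 7.93% of all probe sets, again with Sox1 (-1.43 ± 0.13) and Pax6 (-1.07 ± 0.14). Of 8 primitive streak genes 5 were higher in shMsl1_A and 4 in shNsl1_B, none was called in a knockdown, with the largest difference in Mixl1 (1.27 ± 0.46 in shMsl1_A), and between the array numbers 5 were lower and 3 higher, with Wnt3 called higher (1.01 ± 0.11).

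**Figure D4:**
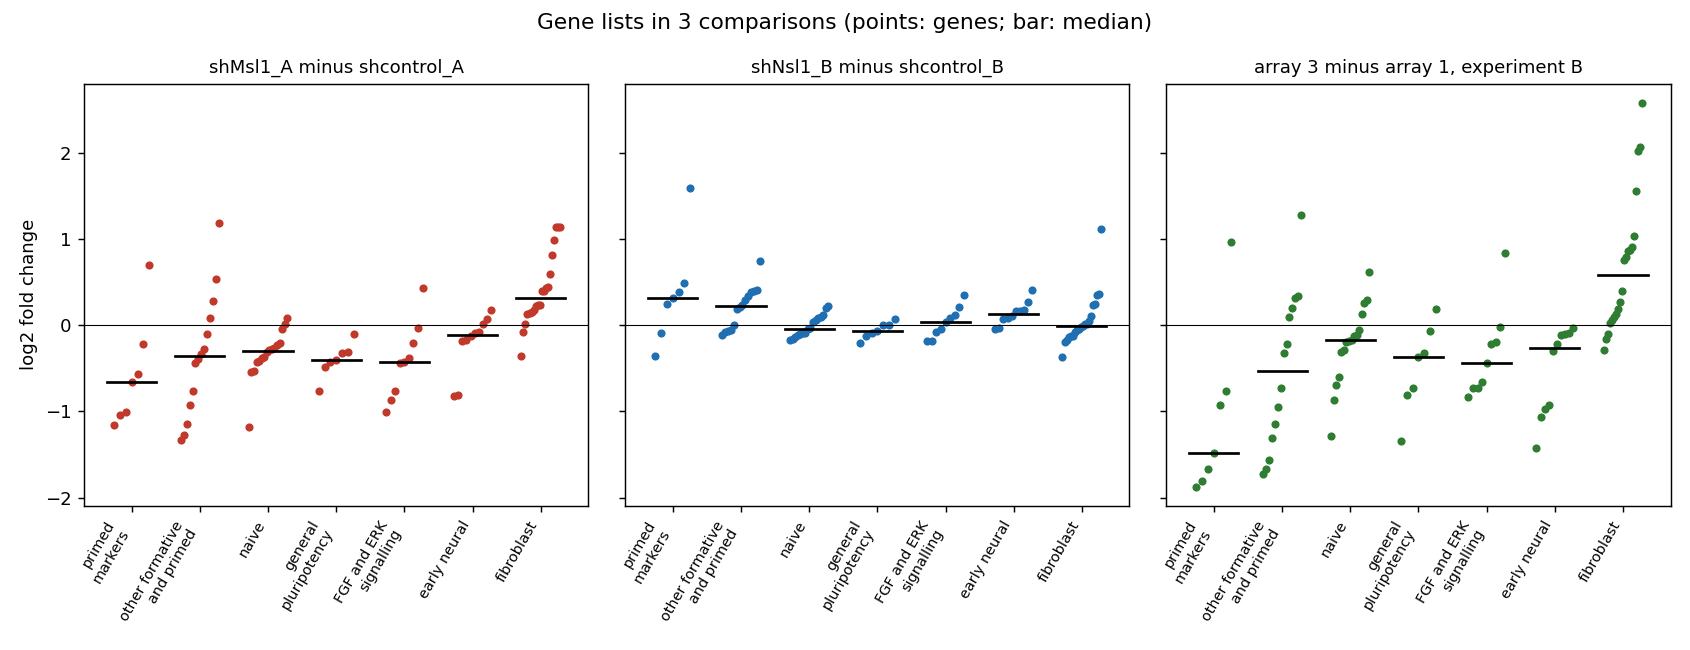
Log2 fold change (vertical axis) of every measured gene of 7 lists (horizontal axis) in shMsl1_A against shcontrol_A, in shNsl1_B against shcontrol_B and of array 3 against array 1 in experiment B, with a point for each gene and a bar for the median. The primed markers, with medians of -0.65, 0.32 and -1.48, have the median furthest from 0 of the 7 lists in each panel.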

How the data were processed

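Total RNA of mESCs was hybridised to Affymetrix GeneChip Mouse Gene 2.0 ST arrays, 3 in each of 4 groups. The study describes them as biological and independent replicas, and the labels do not name separate cultures, so a p-value speaks of how far these arrays scatter. The deposited values were log2 signals that the authors made by RMA (robust multi-array average; Affymetrix Expression Console 1.1), which subtracts background, puts all arrays on the same quantiles and condenses the probes of a probe set. Quantile normalization hides a change that most genes share. Which build the array's annotation used is not stated in the sources read here. That annotation gave 1 symbol to 23525 of the 41345 probe sets, several to 1816 and none to 16004. Of several probe sets of a gene, the brightest on average was taken.

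Comparisons used limma 3.58.1 (R 4.3.3; lmFit, eBayes, two-sided moderated test). P-values were adjusted after Benjamini-Hochberg across the 41345 probe sets, with 0.05 as threshold, and differences carry the SE of the fit. FCROS was written anew with 9 pairs, a trim of 0.25 and limits of 0.025 and 0.975, which share the error level that the study states between both directions. Its pairs and trim were not found. Same-numbered arrays of experiment B deviated together from the group means (r = 0.767, 0.326 and 0.704), so the labels' numbers were taken to pair them. The knockdown fits, with and without the replicate block, FCROS and the comparison of array numbers were tested on simulated data. The simulated arrays scattered independently, without pairs. The fits of the difference of effects and between the controls were not tested in this way. Alternatives were pairing, scaling, filters, pooled controls, FCROS and leaving out arrays. Named genes were the members, the targeted genes, Pou5f1, Sox2 and Nanog, the 2 to 4 genes of smallest p in each list and the 3 genes most like each member. Cdh2, Fgf8, Nodal and Utf1 were added in shMsl1_A after their values were seen, as were Cldn3, Cldn9 and the fibroblast markers that were lower or differed little. The members and lists were chosen with earlier results of these data known, and the motifs after the promoter windows had been read. Of 123 listed genes 118 were measured. Promoters came from RefSeq (GRCm38.p6).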

Additional observations from a re-analysis of the deposited data

Results flagged for a closer look

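Otx2 went opposite ways in the same-numbered arrays of both experiments. It was lower on each array labelled shMsl1_A than on the shcontrol_A array of the same number, by -0.11, -1.64 and -1.36, and higher on each shNsl1_B array than on its shcontrol_B counterpart, by 0.21, 0.40 and 0.35. The effect of the Msl1 shRNA, as labelled, minus that of the Nsl1 shRNA was -1.36 ± 0.80 (SE). The test of this difference did not pass (adjusted p = 0.847 by limma). Cldn6 showed the reverse, at 0.41, 0.68 and 0.99 in experiment A and -0.69, -0.19 and -0.18 in experiment B, with a difference of effects of 1.05 ± 0.44 (SE, adjusted p = 0.754 by limma). The numbers pair the arrays of experiment B but not those of experiment A.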

How the results depend on the processing

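No probe set passed in either knockdown, and this changed with FCROS (1247 calls for Msl1 and 2155 for Nsl1), with all 12 arrays in the fit (55 for Nsl1), with only probe sets of 1 symbol (2 for Nsl1), and with all 6 control arrays (1012 for Nsl1). Without single arrays limma called 0 to 6771 probe sets for Msl1, 0 to 3 for the difference of effects (4 with all arrays), 0 to 8382 between the controls, and 2562 to 6741 between arrays 3 and 1 of experiment B. The difference of effects had 0 calls with arrays centred on their median, 1 without dim probe sets and 20 with probe sets of 1 symbol, and the controls had 0 without dim probe sets. Against all 6 controls Sox3 turned to 0.069 in shMsl1_A, and in shNsl1_B Pou3f1 turned to -0.14, Zic2 to -0.091, the median of the members to -0.091 and that of the other formative and primed genes to -0.046.

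With the replicate block, the pairing taken for experiment B, limma called 0 probe sets for Nsl1. It gave 6146 an unadjusted p under 0.05, against 2175 without the block. Fgf5 stayed at 1.59 with an SE of 0.105 (adjusted p = 0.0845 by limma). That was the smallest adjusted p of the fit, shared with other probe sets, and by unadjusted p Fgf5 had rank 7. The block also gave 0 calls in the difference of effects, and it changed no other call. In experiment A same-numbered arrays deviated from their group means with correlations of 0.045, -0.226 and 0.210, so they were not taken as pairs. These correlations hold for the arrays as labelled and do not settle whether the arrays were paired. The block gave 0 calls for Msl1.

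Leaving out 1 array turned signs that had not passed. In shNsl1_B Otx2 ranged from -0.14 to 0.83, Pou3f1 from -0.21 to 0.83, Foxd3 from -0.40 to 0.14 and Cldn6 from -0.59 to 0.029. Between arrays 3 and 1 of experiment A Fgf5 ranged from -1.02 to 0.098, Otx2 from -1.38 to 0.0030, Zic2 from -2.33 to 0.41 and Sox3 from -0.71 to 0.16, in each case highest without the array labelled shMsl1_A 1. The median of the members lay between -0.11 and 0.73 in shNsl1_B and between -1.12 and -0.38 in shMsl1_A, that of the other formative and primed genes between 0.0035 and 0.33 and between -0.61 and -0.21, and that of the naive genes between -0.11 and 0.065 and between -0.45 and -0.15. The alternatives for array numbers that leave out arrays, and those for the members there, were added after the data were seen.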

Other observations

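Relatives of the members were read beside them. Of 15 measured relatives none passed limma in either knockdown. Cldn4 and Cldn7, claudins of epithelia like Cldn6, differed by 1.23 ± 0.36 and 0.57 ± 0.21 in shMsl1_A against shcontrol_A (SE), and Cldn4 was called higher between arrays 3 and 1 of experiment B (1.43 ± 0.10, adjusted p = 0.00308 by limma). The other claudins listed, Cldn3 and Cldn9, differed by 0.23 ± 0.13 and -0.26 ± 0.25 in shMsl1_A. Between arrays 3 and 1 of experiment B Cldn3 and Cldn9 differed by 0.50 ± 0.15 and 0.06 ± 0.10, and neither was called. Zic5, which neighbours Zic2 on its chromosome, had a pair of probe sets, at -1.15 and -0.57 in shMsl1_A and -0.95 and -0.92 between arrays 3 and 1 of experiment B. Pou3f3, a POU domain relative of Pou3f1, differed by 0.41 ± 0.11 in shNsl1_B (SE, adjusted p = 0.718 by limma). In the trophectoderm list all 6 genes were higher in shMsl1_A than in shcontrol_A and all 6 lower in shNsl1_B than in shcontrol_B, with no call in either, and Hand1, a helix-loop-helix factor of trophoblast and mesoderm, was called higher between arrays 3 and 1 of experiment B (1.91 ± 0.11, adjusted p = 0.00287 by limma). Of 12 primitive endoderm genes 2 were called in each direction in that comparison, in which 14% of all probe sets were called higher and 7.93% lower.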
